A study of Mus musculus with 10 samples.

Results

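RNAseq values of 37 interferon response genes were examined in cultured mouse cells at 2 stages of glioma formation, with and without a vector for the zinc finger factor Zfp423. The 37 genes were taken by symbol from a matrix of 23230 features, and each of them had a row in it. They are the transcription factors Stat2, Irf1, Irf7 and Irf9, the nucleic acid sensors Ifih1, Ddx58, Dhx58 and Zbp1, the OAS family genes Oas2, Oasl1 and Oasl2, and the IFIT family genes Ifit1, Ifit2 and Ifit3. The antiviral effectors are Mx1, Mx2, Bst2, Rsad2 and Ifitm3, the ISG15 system is Isg15, Usp18 and Trim25, and the GTPases are Gbp2, Gbp3, Igtp and Irgm1. Parp9, Parp14 and Dtx3l, the immunoproteasome subunits Psmb8 and Psmb9, and Ifi35, Ifi44, Rtp4, Xaf1, Trim30a and Ifi27l2a complete the list.

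All 10 cultures were C57BL/6 cells without the p16 and p19 proteins of the Ink4a/Arf locus, and all carried EGFRvIII, the constitutively active variant of the human EGF receptor. AstroEGFR were astrocytes from the cerebral cortex at day P5, 1 library from each of 3 astrocyte batches (AstroEGFR_1, AstroEGFR_2 and AstroEGFR_3), grown in medium with serum. PT were glioma propagating cells derived from tumours that such astrocytes formed in CD1 Nude mice, 4 libraries in all. Batch 1 gave PT1 and PT4, batch 2 gave PT2 and batch 3 gave PT3. AstroEGFR_1_Zfp423, AstroEGFR_2_Zfp423 and AstroEGFR_3_Zfp423 were the 3 astrocyte batches infected with the Zfp423 vector, which the sample labels call lentiviral and the study's methods retroviral. All cultures were under passage 10. PT were grown without serum, with EGF and FGF2 on laminin, so the culture medium and the tumour step cannot be told apart between PT and AstroEGFR. Nude hosts lack T cells but keep innate immune cells. In the next paragraphs 3 values of AstroEGFR follow the order of batches 1, 2 and 3, 4 values of PT the order PT1 to PT4, and 3 values with the vector again the order of the batches.

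Interferons are secreted proteins that cells release when their sensors meet viral or misplaced nucleic acid. Type I interferons bind the Ifnar1 and Ifnar2 receptor pair, and the kinases below it activate a complex with Stat2 and Irf9 that recognises the interferon-stimulated response element in the promoters of responsive genes. Interferon gamma acts through another receptor pair, and its signal reaches genes through the gamma-activated site. Most of the 37 genes are kept at a low level in resting cells and encode proteins that block viral entry, replication or release, sense nucleic acid, or restrain the response. In the brain both astrocytes and microglia respond to interferons.

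The 2 elements named above can be read in the promoters of the 4 genes whose values spanned the widest range over the 10 libraries, Gbp2, Ifit3, Bst2 and Igtp. Gbp2 and Igtp encode interferon-induced GTPases of the guanylate-binding and immunity-related families, Ifit3 a protein that acts in a complex on viral RNA, and Bst2 the tetherin that holds budding virus at the cell surface. The 250 bases before the RefSeq start of each gene are given in the direction of transcription, from build GRCm38.p6, with matches in capitals. The motifs searched were the core of the interferon-stimulated response element, GAAA followed after any 2 bases by GAAA, and the gamma-activated site, TTC followed after any 3 bases by GAA. Both strands were searched, so that a response element on the other strand reads TTTC, any 2 bases, TTTC.
Gbp2, chr3:142620413-142620662, plus strand: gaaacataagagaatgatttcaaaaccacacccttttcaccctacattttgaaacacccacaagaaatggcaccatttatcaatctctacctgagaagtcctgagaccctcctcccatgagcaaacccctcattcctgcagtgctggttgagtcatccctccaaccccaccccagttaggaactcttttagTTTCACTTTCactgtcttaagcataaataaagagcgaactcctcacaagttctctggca
Bst2, chr8:71537473-71537722, minus strand: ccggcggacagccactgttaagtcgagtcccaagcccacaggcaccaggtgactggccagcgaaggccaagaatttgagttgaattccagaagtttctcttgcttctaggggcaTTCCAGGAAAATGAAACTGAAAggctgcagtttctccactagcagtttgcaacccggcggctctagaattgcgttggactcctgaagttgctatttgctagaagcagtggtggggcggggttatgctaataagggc
Igtp, chr11:58199306-58199555, plus strand: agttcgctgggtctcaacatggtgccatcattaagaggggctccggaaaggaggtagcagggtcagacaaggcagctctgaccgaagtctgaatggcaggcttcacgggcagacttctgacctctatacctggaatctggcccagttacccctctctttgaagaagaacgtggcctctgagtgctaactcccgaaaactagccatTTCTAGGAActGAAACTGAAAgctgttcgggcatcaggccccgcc
Ifit3, chr19:34583279-34583528, plus strand: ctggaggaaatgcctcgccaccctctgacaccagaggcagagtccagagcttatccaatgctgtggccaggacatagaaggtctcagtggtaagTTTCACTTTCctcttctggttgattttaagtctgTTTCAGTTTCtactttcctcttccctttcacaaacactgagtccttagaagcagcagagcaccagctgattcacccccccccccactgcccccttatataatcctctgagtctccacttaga
In the Gbp2 promoter the capitals mark a response element that begins 59 bases before the start. In the Bst2 promoter they mark a gamma-activated site that begins 136 bases before the start and overlaps the former of 2 response elements, which in turn overlap each other. In the Igtp promoter a gamma-activated site begins 45 and a response element 34 bases before the start, and in the Ifit3 promoter 2 response elements begin 156 and 122 bases before it. RefSeq promoters were matched for 27 of the 37 genes and searched from 250 bases before to 50 bases after the start. The response element was in 14 of these 27 and in 3.99% of 27025 promoters of all genes, and the gamma-activated site was in 7 of the 27 and in 9.55% of all. A match describes the letters only.

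The authors deposited FPKM, a level scaled to transcript length and to the fragments of the library, so levels may be compared between genes. No counts were used here and the depth of the libraries is unknown. The lowest values of a library depend on what a single fragment is worth: the 5th percentile of the non-zero FPKM was 0.0986 in AstroEGFR_3 and 0.0768 in PT3, and 0.0124 to 0.0203 in the other 8 libraries. These 2 libraries also had most features at 0, 36.2% and 39.4%, against 26.7% to 32.0% elsewhere. Small non-coding RNA and histone features took 0.434% to 54.9% of the FPKM of a library. Gapdh was listed at 50.1 FPKM in PT3 and at 0.0106 to 2.52 FPKM in the other 9 libraries, so a listed 0 need not mean that a transcript was absent. Zfp423 was at 0.641 to 4.30 FPKM in the 7 libraries without the vector and at 15.7, 9.73 and 105 FPKM in the 3 with it. Cdkn2a, the gene of p16 and p19, was listed at 3.96 to 129.7 FPKM, highest in PT3, and with 1 value per gene this does not show whether the deleted exons were read. Xist was at 20.4 to 34.9 FPKM in the 3 libraries of batch 2 and at 0.0403 FPKM or less in the other 7, so the batch 2 label held in all 3 groups.

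Across the 10 libraries the 37 genes moved largely as a block that followed single libraries rather than groups. On the log2(FPKM + 1) scale, the median gene stood 1.05 above its own mean in PT3, 0.81 above it in AstroEGFR_2_Zfp423 and 0.70 above it in AstroEGFR_2. It stood 0.78 below in PT1, 0.77 below in PT2, 0.56 below in AstroEGFR_1, 0.53 below in PT4 and 0.50 below in AstroEGFR_3_Zfp423, while over all features the same median lay between -0.04 and 0.02 in every library. PT3 listed 31 of the 37 genes above their own mean, AstroEGFR_2_Zfp423 33 and AstroEGFR_2 30, against 4 in PT1 and 4 in AstroEGFR_3_Zfp423. Each group thus had a high and a low library, and the 3 high libraries came from 2 astrocyte batches. The highest of the 10 values was in PT3 for 16 genes and in AstroEGFR_2_Zfp423 for 13, where the shares over 12476 features were 13.6% and 13.2%. The median range over the 10 libraries was 2.66 on the log2 scale for the 37 genes and 1.67 for all features.

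**Figure D1:**
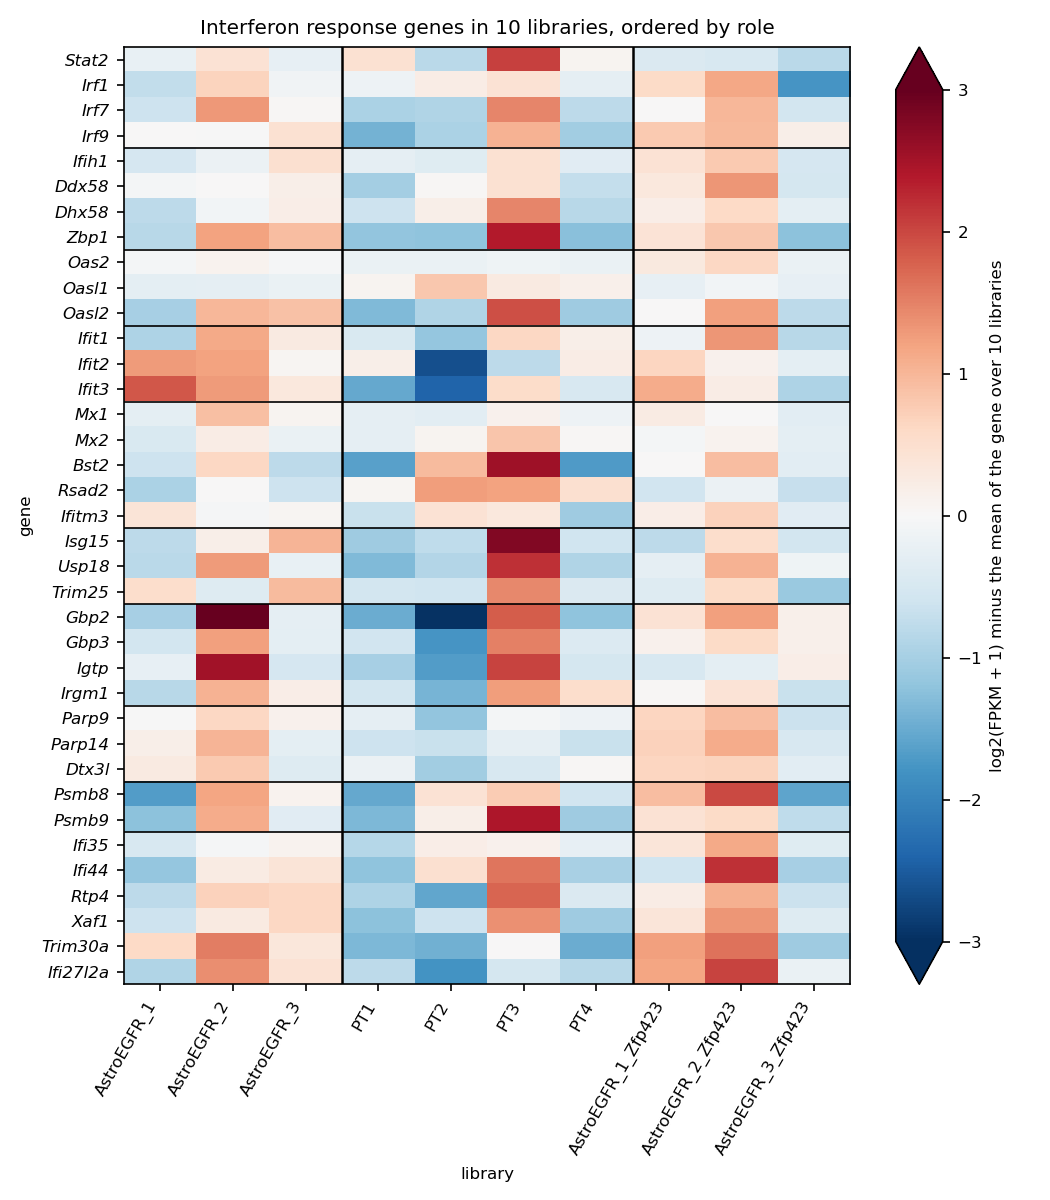
Each row is 1 of the 37 genes, grouped by role, and each column 1 library; colour gives log2(FPKM + 1) minus the mean of the gene over the 10 libraries, with the scale ending at -3 and 3. The columns of PT3, AstroEGFR_2_Zfp423 and AstroEGFR_2 are mostly red, with 31, 33 and 30 genes above their mean, and those of PT1 and AstroEGFR_3_Zfp423 mostly blue, with 4 each.

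The likeness between the genes can be put as a correlation over the 10 libraries, which share batches and differ in depth. For the 33 genes with a mean of at least 1 FPKM, the median Pearson r between pairs was 0.57 and 94.1% of pairs were positive, where the median over pairs of all 12476 features was -0.0012. Irf7 (r = 0.97) and Oasl2 (r = 0.96) lay closest to the mean of these 33 genes, and Rsad2 (r = 0.09) and Ifit2 (r = 0.23) farthest from it. Of the features outside the list, those most like this mean included Ly6c1, Irgm2, Ly6a, Ifi47, Alg6, Eif2ak2, Apol9b, Plau and Smarca5-ps, with r from 0.95 down to 0.88. Ly6c1, a surface protein gene of the Ly6 family, was at 0.794, 4.24 and 4.47 FPKM in AstroEGFR, at 0.720, 0.126, 21.6 and 0.542 FPKM in PT and at 5.22, 9.997 and 0.352 FPKM with the vector. Like 16 of the 37 genes, it was highest in PT3.

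PT were compared with AstroEGFR to ask what changed between tumorigenic astrocytes and the cells of the tumours they formed. No interferon response gene passed the test in either direction, although the values of single PT libraries lay far apart. Of the 37 genes, 28 had a lower and 9 a higher mean in PT, and the median log2 fold change was -0.39, against 0.03 over all features tested. The fit by limma on log2(FPKM + 1) covered the 33 genes that averaged 1 FPKM or more over these 7 libraries, leaving out Oas2, Oasl1, Mx1 and Mx2. With Benjamini-Hochberg adjustment over all 12261 features, 0 of the 33 had an adjusted p below 0.05, where 1.24% of features were called, 0.318% higher and 0.922% lower. Without adjustment, p was below 0.05 for 3 of the 33, against 13.6% of features. These were Trim30a and Ifit3 on the lower side (7.69% of features) and Rsad2 on the higher side (5.88% of features). With the astrocyte batch as a block 0 of the 33 passed as well, while the count of features called went from 152 to 475. A p above the threshold does not show that the groups were alike, and in bulk RNA fewer cells of a kind and less RNA per cell cannot be told apart.

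The antiviral effectors included a gene listed higher in all PT libraries. Rsad2, which encodes viperin, an enzyme that makes an antiviral nucleotide, was at 0.170, 1.29 and 0.466 FPKM in AstroEGFR and at 1.34, 4.44, 4.24 and 2.15 FPKM in PT. Every PT library was above every AstroEGFR library, although the lowest PT value and the highest AstroEGFR value were nearly equal. The log2 means were 1.93 ± 0.59 in PT (SD, n = 4) and 0.66 ± 0.49 in AstroEGFR (SD, n = 3). The log2 fold change was 1.27 with an SE of 0.44 (limma, adjusted p = 0.263). With a pseudocount of 0.1 it was 2.25 (limma, adjusted p = 0.231). Within each astrocyte batch Rsad2 was higher in the tumour cells on the log2 scale, by 1.00 and 1.43 in batch 1, 1.25 in batch 2 and 1.84 in batch 3. With the astrocyte batch as a block its adjusted p was 0.0662. Bst2 did not separate the groups, with 24.1, 57.7 and 21.4 FPKM in AstroEGFR and 11.3, 72.5, 221 and 10.8 FPKM in PT. PT2 and PT3 were above, and PT1 and PT4 were below, every AstroEGFR library. Ifitm3, which blocks the fusion of incoming virus, was the most abundant of the 37 genes, at 407, 302 and 323 FPKM in AstroEGFR and 196, 416, 388 and 147 FPKM in PT. Its 2 low values were those of the batch 1 tumours. Mx1 and Mx2, dynamin-like GTPases that trap viral particles, stayed at 1.62 FPKM or less in these 7 libraries.

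On the log2(FPKM + 1) scale the IFIT family held the gene with the largest difference downward. With a pseudocount of 0.1 in place of 1, Trim30a was further below 0 (-3.82) than this gene, Ifit3 (-2.72). Ifit3 was at 24.3, 16.0 and 7.71 FPKM in AstroEGFR and at 1.39, 0.316, 9.20 and 4.0 FPKM in PT, so that only PT3 reached the AstroEGFR range. Its log2 means were 1.83 ± 1.28 in PT (SD, n = 4) and 3.96 ± 0.78 in AstroEGFR (SD, n = 3), and the log2 fold change was -2.13 with an SE of 0.71 (limma, adjusted p = 0.253). Ifit2, another IFIT protein that binds viral RNA, was at 32.6, 30.9 and 13.5 FPKM in AstroEGFR and 14.7, 1.22, 7.09 and 15.1 FPKM in PT. PT2 and PT3 were below all 3 AstroEGFR libraries, and the log2 fold change of -1.61 had an SE of 0.72 (limma, adjusted p = 0.386), and it was -0.98 without PT2. Ifit1, which binds viral RNA with an uncapped or incompletely capped end, was at 0.974, 7.30 and 3.56 FPKM in AstroEGFR and 1.76, 0.682, 4.77 and 3.26 FPKM in PT, and its groups overlapped. AstroEGFR_1, a low library for most of the 37 genes, was the highest of the 10 for both Ifit2 and Ifit3.

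Among the remaining genes, Trim30a, which encodes a protein of the tripartite motif family, was at 3.27, 7.22 and 2.55 FPKM in AstroEGFR and at 0.111, 0.0440, 1.82 and 0.0125 FPKM in PT. Every PT value was thus under the lowest AstroEGFR value, and PT3 stood apart from the other PT libraries on the high side. The log2 means were 0.43 ± 0.71 in PT (SD, n = 4) and 2.32 ± 0.64 in AstroEGFR (SD, n = 3). The log2 fold change of -1.89 had an SE of 0.51 (limma, unadjusted p = 0.00635, adjusted p = 0.147). With a pseudocount of 0.1 it was -3.82 (limma, adjusted p = 0.168). Ifi27l2a, a member of the small Isg12 family, was at 3.02, 18.8 and 9.09 FPKM in AstroEGFR and 3.36, 1.18, 4.17 and 3.18 FPKM in PT. Its PT libraries lay within or below the AstroEGFR range, with a log2 fold change of -1.30 and an SE of 0.57 (limma, adjusted p = 0.374), which was -0.75 without AstroEGFR_2. Rtp4, Xaf1 and Ifi44 were each highest in PT3 among the PT libraries, at 15.6, 6.30 and 6.57 FPKM, against at most 2.65, 0.845 and 2.43 FPKM in the other 3. Ifi35, a partner of the interferon-induced protein Nmi, varied least of these 6 genes, from 6.48 to 14.5 FPKM over the 7 libraries.

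Of the GTPases, Gbp2 and Igtp spread more among the 3 AstroEGFR libraries than any other of the 37 genes. Gbp2 was at 5.64, 132.7 and 9.99 FPKM in AstroEGFR, a range of 4.33 on the log2 scale, and at 3.72, 0.690, 45.5 and 4.75 FPKM in PT. AstroEGFR_2 and its tumour line PT2 held the highest and the lowest of these 7 values. Its log2 fold change of -1.65 had an SE of 1.33 (limma, adjusted p = 0.661), and it ranged from -2.58 without PT3 to -0.33 without AstroEGFR_2 when 1 library was left out, with -2.50 without AstroEGFR_1 and -0.98 without PT2. Igtp was at 6.03, 47.2 and 4.93 FPKM in AstroEGFR, a log2 range of 3.02, and at 3.21, 1.62, 33.1 and 4.81 FPKM in PT, with AstroEGFR_2 and PT3 again apart from the other 5 libraries. Gbp3, also a guanylate-binding protein, was at 9.68 FPKM in AstroEGFR_2 and 12.01 FPKM in PT3 and at 0.334 to 2.68 FPKM in the other 5. Irgm1, an immunity-related GTPase that acts on intracellular membranes, was at 14.8, 57.4 and 31.2 FPKM in AstroEGFR and at 18.2, 9.65, 66.3 and 39.97 FPKM in PT. The 4 GTPases thus had their 2 high values in the same libraries, 1 in each group.

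**Figure D2:**
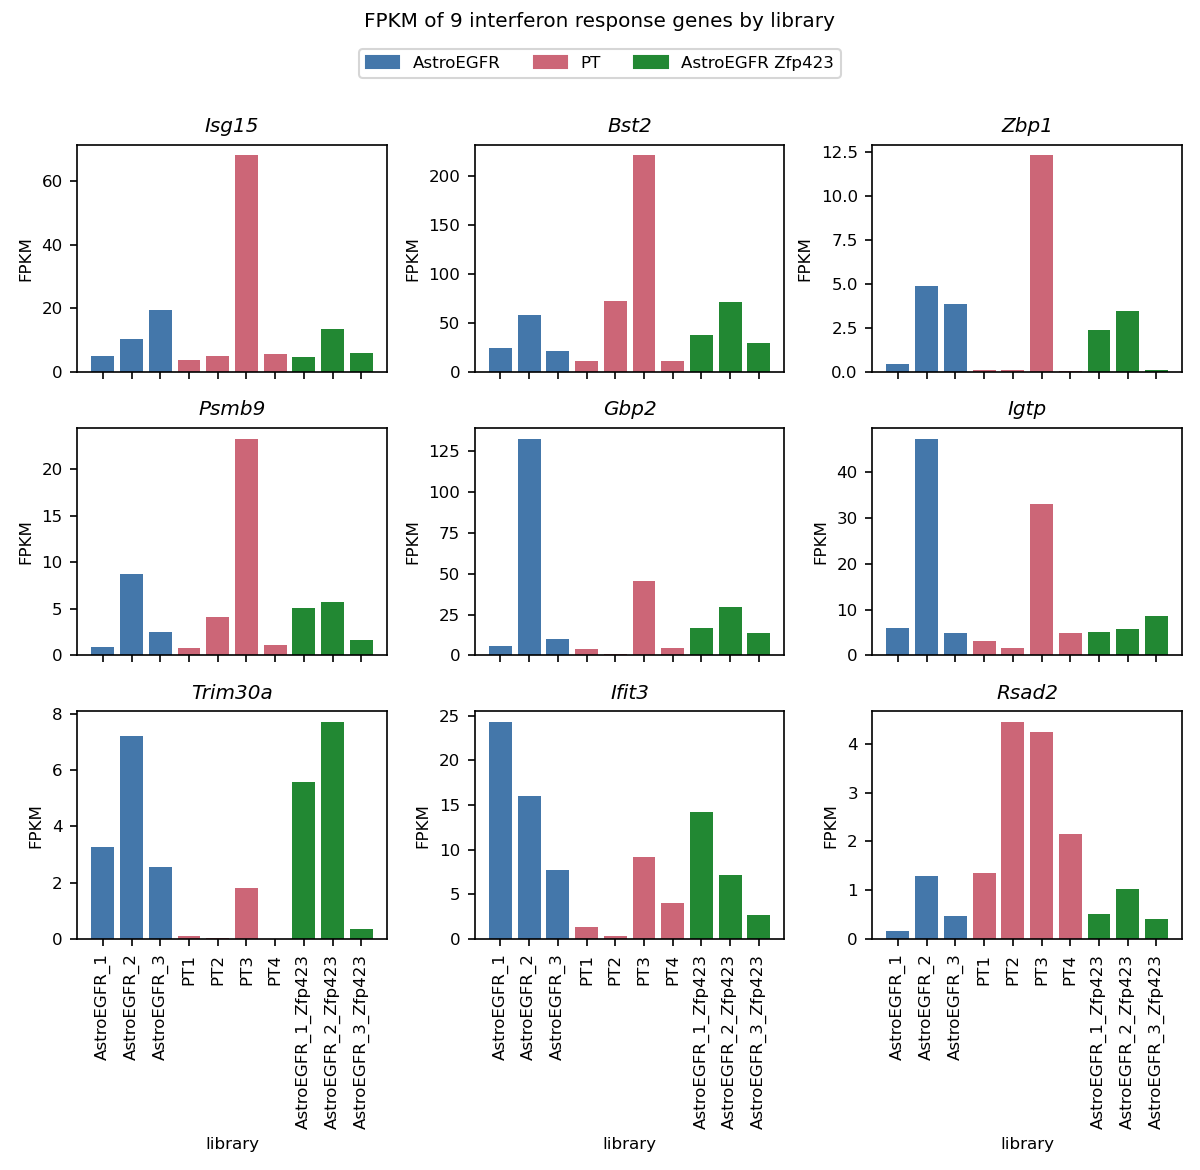
Bars give the FPKM of 9 interferon response genes in each of the 10 libraries, coloured by group, with an FPKM axis from 0 for each gene. Isg15, Bst2, Zbp1 and Psmb9 are tallest in PT3, Gbp2 and Igtp in AstroEGFR_2, and Rsad2 is above every AstroEGFR value in all 4 PT libraries.

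Of the transcription factors, Irf9, the DNA-binding part of the type I complex, was at 10.1, 9.90 and 14.1 FPKM in AstroEGFR and at 3.13, 4.70, 21.8 and 4.33 FPKM in PT. The 3 other PT libraries were below the AstroEGFR range and PT3 was above it. Its log2 fold change was -0.74 with an SE of 0.58 over all 7 libraries (limma, adjusted p = 0.643) and -1.29 with an SE of 0.28 without PT3 (limma, adjusted p = 0.101). Stat2, its partner in that complex, was at 5.82, 9.80 and 5.75 FPKM in AstroEGFR and 9.99, 3.56, 31.9 and 7.41 FPKM in PT, again highest in PT3. Irf7, which drives interferon genes, was at 0.984, 6.52 and 2.11 FPKM in AstroEGFR and 0.588, 0.626, 7.44 and 0.754 FPKM in PT. Irf1, an activator of many genes under interferon gamma, was among the 6 most abundant genes, at 8.79, 24.8 and 14.1 FPKM in AstroEGFR and 13.8, 18, 21.1 and 12.4 FPKM in PT. All 4 factors had overlapping groups.

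The sensors and the ISG15 system likewise had PT3 as the highest PT library. Zbp1, a sensor of Z-form nucleic acid, was at 0.429, 4.87 and 3.84 FPKM in AstroEGFR and 0.123, 0.115, 12.3 and 0.0725 FPKM in PT, so that PT3 held the highest and the other 3 the lowest of these 7 values. Dhx58, a regulator of the RNA sensors, was at 5.15 FPKM in PT3 and at 0.251 to 1.58 FPKM in the other 6. Ifih1 and Ddx58, the RNA sensors MDA5 and RIG-I, covered narrower ranges, 1.23 to 3.39 and 3.55 to 11.7 FPKM. Isg15, the ubiquitin-like modifier, was at 4.88, 10.5 and 19.5 FPKM in AstroEGFR and 3.82, 4.89, 68.2 and 5.68 FPKM in PT. Usp18, which removes Isg15 from proteins and restrains the type I receptor, was at 0.980, 7.38 and 1.94 FPKM in AstroEGFR and 0.379, 0.883, 14.7 and 0.843 FPKM in PT. Trim25, a ubiquitin ligase that acts on RIG-I, was at 6.78, 3.10 and 9.39 FPKM in AstroEGFR and 2.65, 2.57, 13.5 and 2.96 FPKM in PT. For Isg15, Usp18 and Trim25 alike, PT3 was above all 3 AstroEGFR libraries and PT1 was below them, as PT2 and PT4 were for Usp18 and Trim25.

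Of the OAS family, whose founding members make the oligoadenylates that activate RNase L, Oasl2 was at 0.546, 5.20 and 4.71 FPKM in AstroEGFR and 0.247, 0.646, 10.9 and 0.479 FPKM in PT, highest in PT3. Oas2 was below 0.25 FPKM and Oasl1, a restraint on Irf7, was at most 1.15 FPKM in these 7 libraries. Neither entered the test. Oasl1 was listed higher in every PT library (0.300 to 1.15 FPKM) than in every AstroEGFR library (0.0112 to 0.0792 FPKM). Oas2 was listed lower in every PT library, but each of these values lay under the 5th percentile of the non-zero FPKM of its library. Nothing is read from them, and the Oasl1 values of AstroEGFR_1 and AstroEGFR_3 were also under that percentile of their library. The immunoproteasome subunits Psmb8 and Psmb9, which shape peptides for antigen presentation, reached 10.3 and 23.2 FPKM in PT3 and were at 1.29 and 0.781 FPKM in PT1, with Psmb8 at 8.04 FPKM in PT2 and 3.50 FPKM in PT4. Parp9, Parp14 and Dtx3l, of which Parp9 and Dtx3l form a complex that modifies histones and viral proteins, differed less between PT libraries, with an SD of 0.52, 0.19 and 0.47 on the log2 scale against 1.04 and 1.72 for Psmb8 and Psmb9. Parp9 was at 7.97, 13.0 and 8.85 FPKM in AstroEGFR and 6.49, 2.97, 7.72 and 7.10 FPKM in PT, lower in every PT library, with a log2 fold change of -0.66 and an SE of 0.35 (limma, adjusted p = 0.462). In all, groups did not overlap for 5 of the 37 genes, Rsad2 and Oasl1 upward and Trim30a, Parp9 and Oas2 downward. Oasl1 and Oas2 were untested and had the low-end values given above, which leaves 3 of the 33 tested. Of the features tested 14.8% did not overlap, 6.95% upward and 7.81% downward.

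PT3 was the highest of the 4 PT libraries for 31 of the 37 genes and for 28 of the 33 tested, against 29.5% of the features tested. By Dixon's test at 95% it stood apart on the high side for 9 of these 33, against 1.64% of features, where any library stood apart on either side for 6.98%. Leaving it out moved the median log2 fold change of the 37 genes from -0.39 to -0.64, and 0 genes passed the test, the lowest adjusted p being 0.0766 for Trim30a (limma). PT3 and AstroEGFR_3 were the 2 libraries with the highest low-end FPKM values, so their depth may differ from that of the other 8, and the part of depth in these results was not tested. Leaving out both gave a median of -0.68 and again 0 genes passing.

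**Figure D3:**
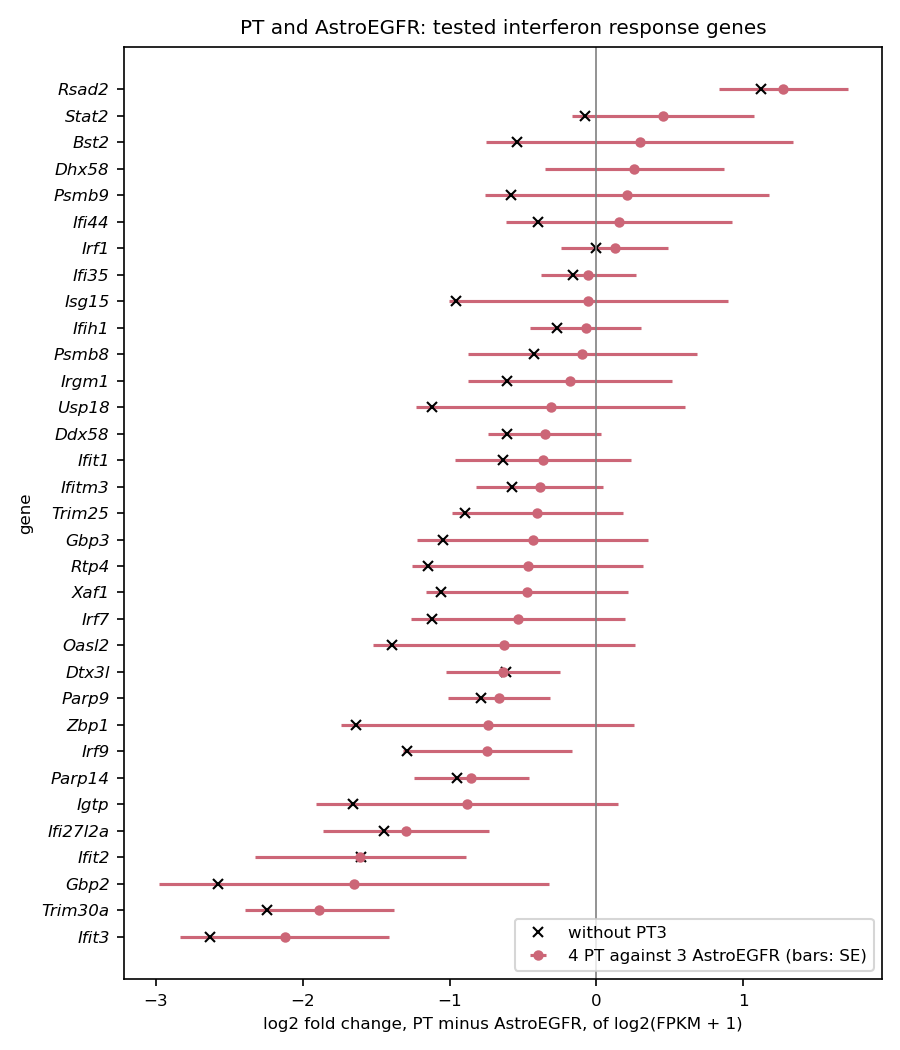
Points give the log2 fold change of log2(FPKM + 1), PT minus AstroEGFR, for the 33 tested genes, with bars of 1 SE from limma over 4 PT and 3 AstroEGFR libraries, and crosses give the value without PT3 (none for Dhx58, which then fell under the minimum mean). Trim30a and Ifit3 lie at -1.89 and -2.13 and Rsad2 at 1.27, and most crosses lie left of their points.

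Since each PT library came from a known astrocyte batch, each was also set against its own batch, with 1 library on each side and therefore no test. On the log2(FPKM + 1) scale, PT3 was higher than AstroEGFR_3 for 30 of the 37 genes, by at least 1 for 17 of them, where the share of features higher by at least 1 was 8.44%, and lower by at least 1 for 0, against 13% of features. The median difference was 0.66 and the largest was that of Bst2, 3.31. PT2 was lower than AstroEGFR_2 for 29 of the 37, by at least 1 for 19 of them, where the share of features was 15.9%, and higher by at least 1 for 2, against 12.7% of features. The median difference was -1.22, and those of Gbp2, Igtp and Ifit2 were -6.31, -4.20 and -3.85. PT1 was lower than AstroEGFR_1 for 25 genes, by at least 1 for 7 (10% of features), and higher by at least 1 for 1 (7.65% of features), with a median of -0.29. PT4 was lower for 20, by at least 1 for 6 (10.2% of features), and higher by at least 1 for 4 (8.62% of features), with a median of -0.06. The median differences of batches 2 and 3 thus had opposite signs, while those of batch 1 lay nearer 0. Single genes of batch 1 moved further, with Ifit3 at -3.40 in PT1 and -2.34 in PT4 and Rsad2 at 1.00 and 1.43. The difference between batches was not tested because batches 2 and 3 had 1 tumour line each.

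The GTPases differed most between the batches, with group medians of -0.26 and -0.03 for PT1 and PT4, -3.60 for PT2 and 1.95 for PT3. The ISG15 system had medians of -0.52, -0.10, -0.96 and 1.75 for PT1, PT4, PT2 and PT3. The IFIT family had medians of -1.10, -1.06, -3.69 and 0.23 for PT1, PT4, PT2 and PT3, although Ifit1 was higher in PT1 and PT4, by 0.48 and 1.11. For the antiviral effectors the medians were 0.01, 0.13, 0.32 and 1.04, none of them below 0. The medians of PT1 and PT4 were the values of Mx1, which was too low to be tested. In PT1 and PT4 Bst2 differed by -1.02 and -1.08 and Ifitm3 by -1.05 and -1.46. Rsad2 differed there by 1.00 and 1.43, and Mx2, also untested, by 0.19 and 0.49. Parp9, Parp14 and Dtx3l had medians of -0.46, -0.24, -1.81 and -0.08.

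The Zfp423 vector was compared with no vector in the same 3 astrocyte batches, to ask what forced expression of Zfp423 changed in tumorigenic astrocytes. The 37 genes had no common direction over the batches, and none passed the test. Of the 37 genes, 23 had a higher and 14 a lower mean with the vector, and the median log2 fold change was 0.06, against 0.02 over all features tested. The fit by limma with the batch as a block covered 32 of the 37 genes, leaving out Oas2, Oasl1, Mx1, Mx2 and Rsad2. Of these 32, 0 had an adjusted p below 0.05, where 0% of 12366 features were called. Zfp423 itself, at 4.30, 3.25 and 3.48 FPKM without and 15.7, 9.73 and 105 FPKM with the vector, was thus not called either. The fit therefore cannot show that any of these genes was unchanged. Without adjustment, p was below 0.05 for Ifit3 and Ifit2, 2 of the 32, both lower with the vector. The share of features was 7.38%, 3.3% higher and 4.08% lower. Without the block, and with all 10 libraries in 1 fit, the unadjusted p was below 0.05 for 0 of the 32. Values with and without the vector did not overlap for 1 of the 37 genes, Stat2, lower with the vector. Of the features tested 11.5% did not overlap, 5.68% upward and 5.87% downward.

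Of the IFIT genes, Ifit3 and Ifit2 were listed lower in all 3 batches, and Ifit1, at 2.39, 8.41 and 1.13 FPKM with the vector, was higher in batches 1 and 2 and lower in batch 3. Ifit3 was at 24.3, 16.0 and 7.71 FPKM without and at 14.2, 7.16 and 2.69 FPKM with the vector, and the differences within the batches were -0.73, -1.06 and -1.24 on the log2 scale. Over the 3 batches this gave a log2 fold change of -1.01 with an SE of 0.25 (limma, unadjusted p = 0.0132, adjusted p = 0.628). Ifit2 was at 32.6, 30.9 and 13.5 FPKM without and 20.8, 14.2 and 10.4 FPKM with the vector, with a log2 fold change of -0.68 and an SE of 0.25 (limma, adjusted p = 0.628). Stat2 was at 5.82, 9.80 and 5.75 FPKM without and 4.88, 4.71 and 3.57 FPKM with the vector, with a log2 fold change of -0.57 and an SE of 0.29 (limma, adjusted p = 0.656). These were the only 3 of the 37 genes with a lower value in all 3 batches, where 15.2% of the features tested were lower in all 3 and 16.3% higher. Bst2 was the only gene higher in all 3, at 37.5, 71.9 and 30.0 FPKM with the vector, by 0.62, 0.31 and 0.47 on the log2 scale (limma, adjusted p = 0.634).

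Most of the other genes differed in sign between the batches. In batch 1, 30 of the 37 genes were higher with the vector, 8 of them by at least 1 on the log2 scale, against 10.6% of features, and 0 were lower by that much, against 7.73%. In batch 2, 22 were higher, and 4 were higher and 4 lower by at least 1, against 11.6% and 12% of features. In batch 3, 31 were lower with the vector, 11 of them by at least 1, against 16% of features, and 0 were higher by that much, against 9.83%. The medians were 0.63, 0.19 and -0.56, and with 1 pair per batch the difference between batches was not tested. Over all features, deviations from the group means correlated at 0.24 in the pair of batch 1 but at -0.11 and -0.26 in those of batches 2 and 3, so the pairing was taken from the labels, and Xist bears on that of batch 2 only.

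Psmb8 was at 1.09, 14.1 and 6.14 FPKM without and 11.7, 25.2 and 1.21 FPKM with the vector, the largest difference of batch 1 (2.60) and among the largest of batch 3 (-1.69). Ifi27l2a followed the same course, from 3.02, 18.8 and 9.09 FPKM to 16.0, 29.5 and 5.58 FPKM, and its log2 fold change of 0.70 was 0.0035 without batch 1 and 1.35 without batch 3. Igtp was at 47.2 FPKM in AstroEGFR_2 and 5.85 FPKM in AstroEGFR_2_Zfp423, the largest difference of batch 2 (-2.81), and it was at 5.06 and 8.61 FPKM in AstroEGFR_1_Zfp423 and AstroEGFR_3_Zfp423. Gbp2 likewise was at 132.7 FPKM in AstroEGFR_2 and 30.0 FPKM with the vector, while in batches 1 and 3 it was higher with the vector, 17.1 and 13.7 FPKM. Trim30a was at 5.59, 7.70 and 0.342 FPKM with the vector, higher than without it in batches 1 and 2 and lower in batch 3. Rsad2, not tested here, was at 0.515, 1.02 and 0.411 FPKM with the vector. Trim25 was at 3.10, 7.04 and 1.47 FPKM with the vector, lower than without it in batches 1 and 3 and higher in batch 2. Zbp1 was at 2.38, 3.47 and 0.0968 FPKM with the vector, with the largest drop of batch 3 (-2.14). Isg15, at 4.87, 13.5 and 5.93 FPKM with the vector, was at nearly the same level in batch 1, higher in batch 2 and lower in batch 3. Irf1 was at 23.1, 35.4 and 3.76 FPKM with the vector, so that the highest and the lowest of its 10 values both came from this group. Ifitm3 and Irgm1 were at 357, 497 and 243 FPKM and at 27.8, 36.3 and 16.7 FPKM with the vector.

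**Figure D4:**
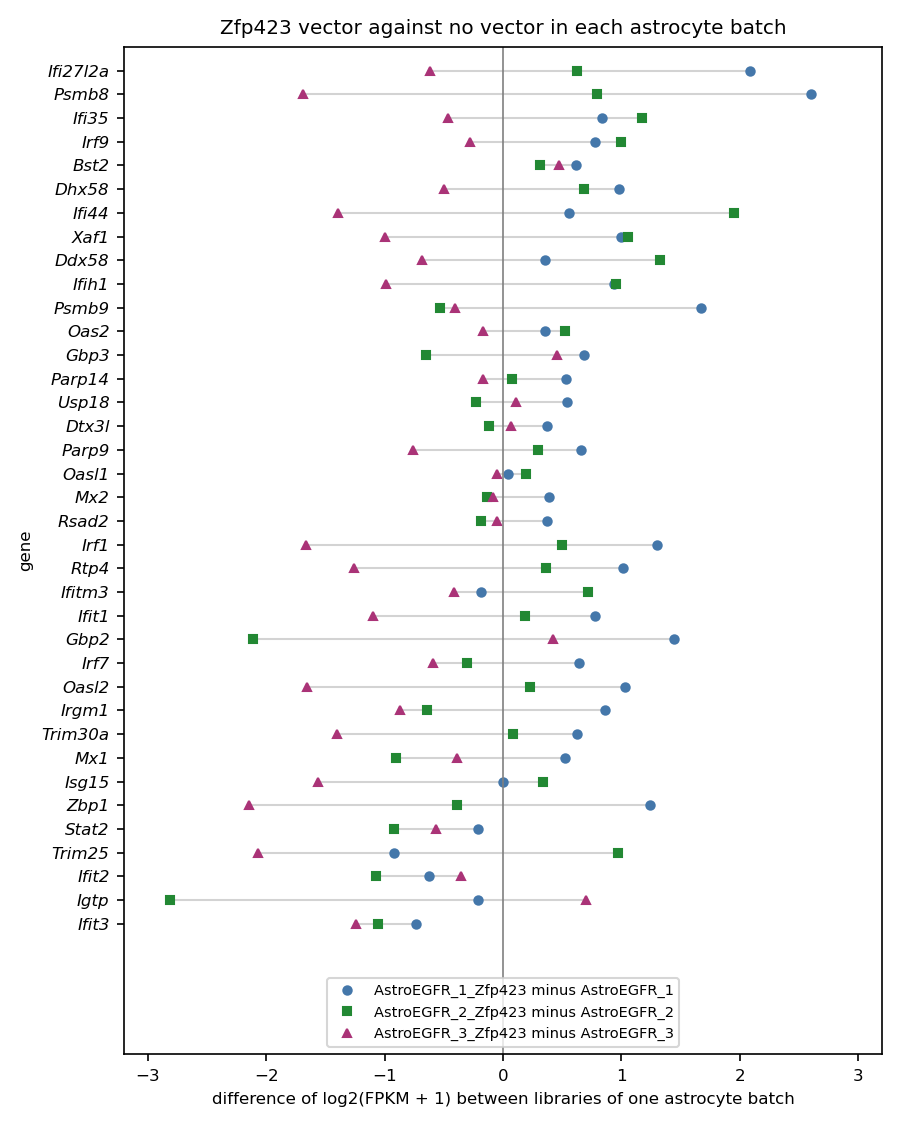
Each row is 1 of the 37 genes, and the 3 symbols give the difference of log2(FPKM + 1) between the libraries with and without the Zfp423 vector in batches 1, 2 and 3. Triangles of batch 3 lie mostly left of 0 (31 of 37), circles of batch 1 mostly right of it (30 of 37), and for Ifit3, Ifit2 and Stat2 all 3 symbols lie left of 0.

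The libraries also differed in markers of other cell types, and the part of these cells in the values above was not tested. Microglial and macrophage markers, 17 genes, summed to 2848 FPKM in AstroEGFR_1_Zfp423 and 1630 FPKM in AstroEGFR_2_Zfp423, against 1.73 FPKM in AstroEGFR_3_Zfp423 and 5.70 to 42.8 FPKM in the 7 libraries without the vector. C1qa, a complement subunit made by microglia, was at 433 and 290 FPKM in these 2 libraries and at 0 in AstroEGFR_3_Zfp423, where 8 of the 17 markers were at 0, and at most 1.71 FPKM elsewhere. The highest of the 10 values was in AstroEGFR_1_Zfp423 for 16 of the 17 markers. Above their own mean were 27 and 33 of the 37 genes in the 2 vector libraries with these markers and 4 in the vector library without, while PT3, which held the highest value of 16 of the 37 genes, had a marker sum of 7.04 FPKM with 5 of 17 at 0, and AstroEGFR_2 had 5.87 FPKM with 0 at 0. Fibroblast markers, 7 genes, summed to 5092, 7597 and 348 FPKM with the vector, to 658, 647 and 6199 FPKM in AstroEGFR and to 120, 47.5, 526 and 46.8 FPKM in PT. Astrocyte markers, 9 genes and none at 0 in any library, summed to 207 and 60.04 FPKM in AstroEGFR_1_Zfp423 and AstroEGFR_2_Zfp423, and to 352 to 1056 FPKM in the other 8. Gfap, the intermediate filament of astrocytes, was at 1.11 FPKM in AstroEGFR_2_Zfp423 and 7.94 FPKM in AstroEGFR_1_Zfp423, against 47.3 FPKM or more in AstroEGFR. The other markers did not all follow it in AstroEGFR_1_Zfp423, where S100b, a calcium-binding protein of astrocytes, was at 6.99 FPKM, above all 3 AstroEGFR libraries, and the glutamate transporter gene Slc1a2, at 7.40 FPKM, was within their range. Oligodendrocyte lineage markers, 8 genes, summed to 1357 FPKM in PT1 and 1689 FPKM in PT4, where 4 and 8 of the 37 genes were above their own mean, and to 145 FPKM in PT2, 131 FPKM in PT3 and 38.3 to 223 FPKM in the 6 astrocyte libraries, with 0 to 3 of the 8 at 0. Neuronal markers, 5 genes, summed to 6.30 to 100.4 FPKM. Markers of lymphocytes summed to at most 0.255 FPKM and those of endothelium to at most 3.04 FPKM in any library.

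**Figure D5:**
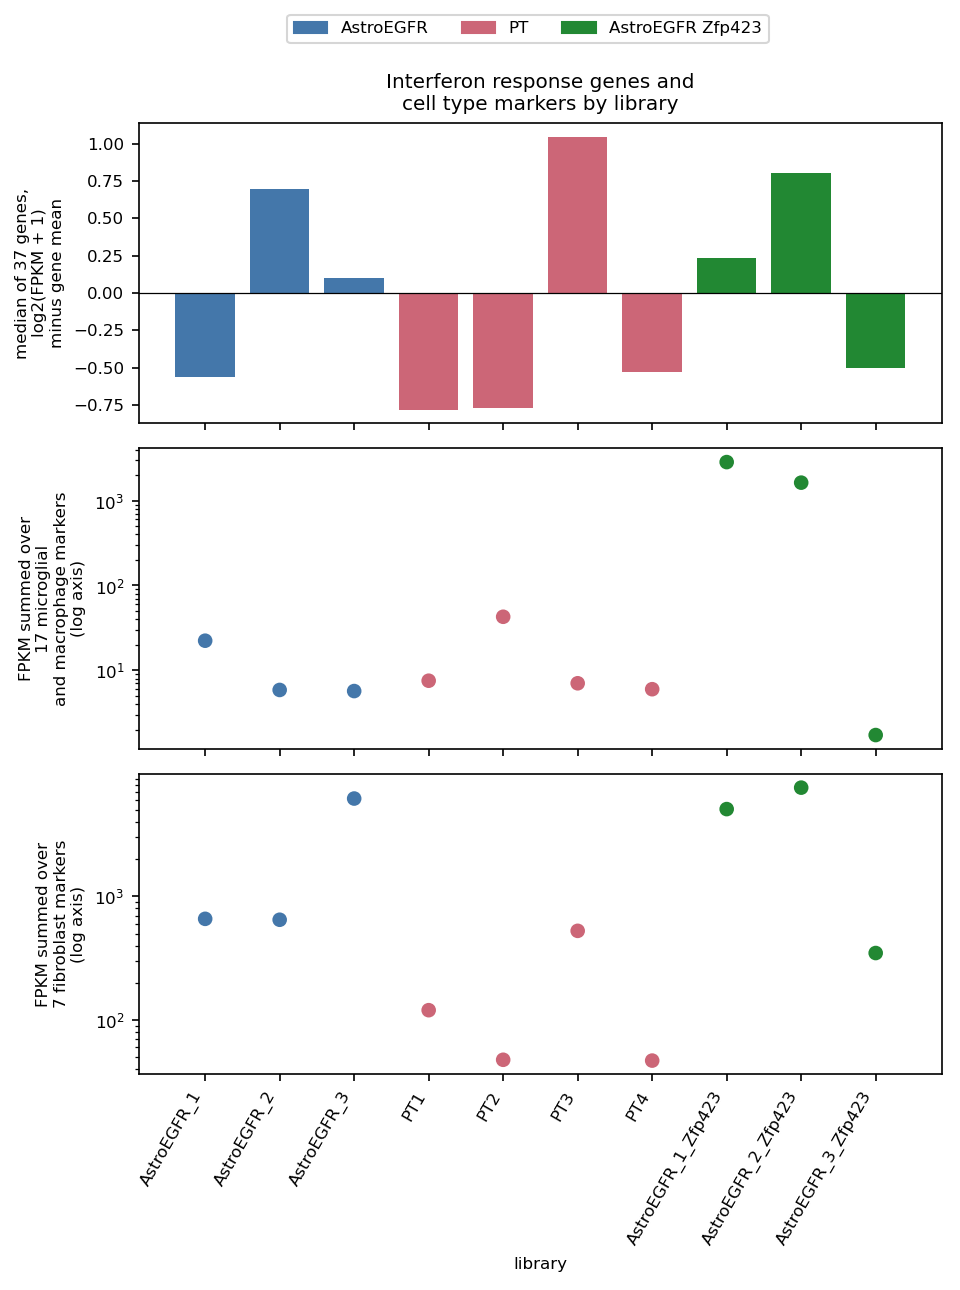
The top panel gives for each library the median over the 37 genes of log2(FPKM + 1) minus the gene's mean over 10 libraries, and the lower panels give the FPKM summed over 17 microglial and macrophage and over 7 fibroblast markers on log axes. The median is highest in PT3 (1.05), where the microglial sum is 7.04 FPKM, and the microglial sums of 2848 and 1630 FPKM belong to AstroEGFR_1_Zfp423 and AstroEGFR_2_Zfp423.

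The wider pathway was read from lists of genes outside the 37. Of the ligands, 6 interferon genes were in the matrix and none entered the tests: their summed level was at most 0.103 FPKM in any library and 0 in 7 of the 10. Ifnb1, interferon beta, was listed at 0.0534 FPKM in AstroEGFR_2 and 0.0180 FPKM in PT1 and at 0 in the other 8. Both type I receptor genes were above 0 in every library. Ifnar1 was at 13.9 to 26.7 FPKM and Ifnar2 at 18.02 to 67.8 FPKM, highest in PT3. Of the 5 receptor genes tested, 0 passed in either comparison.

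Upstream of interferon, 11 genes were tested and 0 passed. Tmem173, the adaptor STING that relays cytosolic DNA, came nearest in PT, at 8.64, 14.6 and 17.4 FPKM in AstroEGFR and 29.6, 45.2, 47.8 and 39.9 FPKM in PT, with all PT libraries higher (log2 fold change 1.54, SE 0.30, limma, adjusted p = 0.0624). Of the kinases and regulators, 0 of 7 passed in PT and 0 of 8 with the vector. Socs1, a feedback inhibitor of the receptor kinases, was at 6.25, 6.31 and 4.21 FPKM in AstroEGFR, at 2.13, 0.909, 1.49 and 2.49 FPKM in PT and at 2.71, 1.997 and 2.55 FPKM with the vector, so that all 7 other libraries were below all 3 AstroEGFR libraries. Its log2 fold change was -1.28 with an SE of 0.32 in PT (limma, adjusted p = 0.129) and -0.94 with an SE of 0.33 with the vector (limma, adjusted p = 0.628). The 2 comparisons share the AstroEGFR libraries.

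Of 55 further interferon-induced genes, 0 of the 42 tested passed in PT and 0 of the 48 tested passed with the vector. Without adjustment, p was below 0.05 for 4 of them in PT, all lower, against 7.69% of features lower, and for 0 with the vector, against 7.38% of features. Their highest of 10 values was in PT3 for 15 genes, in AstroEGFR_2_Zfp423 for 20 and in AstroEGFR_1_Zfp423 for 8, against 13.6%, 13.2% and 5.85% of features. Ifi204 and Ifi205, of the family of DNA-binding interferon-induced proteins, had the largest differences in PT: Ifi204 was at 12.8, 20.0 and 22.8 FPKM in AstroEGFR and 2.77, 0.148, 20.2 and 3.61 FPKM in PT (log2 fold change -2.07, SE 0.86, limma, adjusted p = 0.352). Ifi205 was at 8.93, 16.7 and 11.3 FPKM in AstroEGFR and 3.23, 0.121, 7.02 and 2.45 FPKM in PT (log2 fold change -1.94, SE 0.63, limma, adjusted p = 0.228). Both were highest in PT3 among the PT libraries, as most of the 37 genes were. Irf8, Slfn2 and Epsti1 had the largest differences with the vector, at 15.4, 16.4 and 4.81 FPKM in AstroEGFR_1_Zfp423 and 7.02, 13.3 and 3.998 FPKM in AstroEGFR_2_Zfp423, the libraries with microglial markers, and at 0.0810, 0.0262 and 0.0692 FPKM in AstroEGFR_3_Zfp423.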

How the data were processed

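The authors deposited FPKM of 23230 features in 10 libraries, all used here as deposited. The submitters' processing notes name TopHat 1.3, Cuffnorm and mm9, without the role of each. The sample labels name a TruSeq kit, the paper a stranded kit after removal of ribosomal RNA.

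Groups and batch numbers came from the labels, and the batches of PT from the paper. Both comparisons used limma (version 3.58.1, under R 4.3.3) with values as log2(FPKM + 1), which understates changes of low genes, an empirical Bayes trend, a minimum mean of 1 FPKM and Benjamini-Hochberg adjustment over all features, two-sided, threshold 0.05. PT were compared without, and Zfp423 with, the astrocyte batch as a block. Same-batch deviations of AstroEGFR and PT correlated at 0.35 to 0.50, those of AstroEGFR and AstroEGFR_Zfp423 at 0.24, -0.11 and -0.26. AstroEGFR_2 with AstroEGFR_3_Zfp423 (0.22) and AstroEGFR_3 with AstroEGFR_2_Zfp423 (0.30) correlated more than their labelled pairs, but Xist marked batch 2 in every group and the labelled pairing was kept. Without counts, no count model was run. The fits were run on simulated data with independent noise, no batch effect and large changes in well-expressed features only. That run does not show how they perform with shared batches, smaller changes or low genes. Each culture gave 1 library, so p-values measure the spread between these libraries.

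The 37 genes and all lists were chosen with earlier results of these data known. Values in every library were given for genes passing a test, the 6 with the largest log2 fold change in each comparison, the 6 most abundant and those with an AstroEGFR range of at least 3 on the log2 scale, and for others after their values were seen. Alternatives were a pseudocount of 0.1, no filter, median-ratio scaling, no trend, all libraries in 1 fit, the block, PT1 and PT4 averaged, removal of 813 small RNA and histone features, and each library left out. Of the features most like the 37 genes, 1 is not reported here. Figures used matplotlib 3.10.9 in Python 3.11.15.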

Additional observations from a re-analysis of the deposited data

Results flagged for a closer look

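PT3 stood apart on the high side of the 4 PT libraries for 9 of the 33 genes tested, by Dixon's test at 95%. Of the features tested this held for 1.64%, and for 6.98% with any library on either side. Chance flags about 1 in 20 groups of independent values, for any library on either side, but PT1 and PT4 came from the same batch. The 9 genes come from 1 library and are not independent, so their count is a description. The log2(FPKM + 1) values of PT3 were 6.11 for Isg15, 3.97 for Usp18, 3.86 for Trim25, 3.73 for Zbp1, 3.58 for Oasl2, 3.08 for Irf7 and 2.11 for Ifih1. They were 1.496 for Trim30a and 1.35 for Parp14. PT3 also stood apart for Oas2, which was too low to be tested. Its value of 0.0886, or 0.0633 FPKM, lay under 0.0768 FPKM, the 5th percentile of the non-zero values of PT3, so nothing is read from it. PT3 was also among the 2 libraries with the highest low-end FPKM, and the part of depth in these values was not tested.

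The difference between PT and AstroEGFR of the same batch varied with the batch. Its median over the 37 genes on the log2(FPKM + 1) scale was -0.29 for PT1, -0.064 for PT4, -1.22 for PT2 and 0.66 for PT3, and the difference between batches was not tested.

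The median difference with the Zfp423 vector was 0.63 in batch 1, 0.19 in batch 2 and -0.56 in batch 3, and this difference was not tested either, with 1 pair of libraries in each batch.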

How the results depend on the processing

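The count of interferon response genes passing was 0 in both comparisons under every alternative run. The median log2 fold change of the 37 genes stayed below 0 in PT (-0.68 to -0.05, the latter without AstroEGFR_2), and with the vector it lay between -0.24 (without batch 1) and 0.35 (without batch 3). The count of all features called in PT, 152, was 82 with all 10 libraries in 1 fit, 475 with the astrocyte batch as a replicate block, 59 with PT1 and PT4 averaged, and 8 without AstroEGFR_3 and PT3, chosen after seeing the data. Leaving out 1 library gave 7 to 123, with 7 without AstroEGFR_1, 54 without AstroEGFR_3, 97 without PT1, 70 without PT2 and 58 without PT4. With the vector, 0 features were called, 2 without the replicate block, and 0 to 60 when 1 library was left out, with 47 without AstroEGFR_2 and 60 without AstroEGFR_2_Zfp423. The log2 fold changes with the vector of Igtp (-0.78), Trim25 (-0.67) and Psmb8 (0.57) turned to 0.24 without batch 2, 0.023 without batch 3 and -0.45 without batch 1. When 1 library was left out they ranged from -1.51 to 0.24, from -1.50 to 0.023 and from -0.45 to 1.70. In each of these cases 1 batch carried the direction, and the block changed no call among the 37 genes. FPKM give no depth per gene, so the precision of low values is unknown.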
